A study of Mus musculus with 29 samples.

Results

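The genes of cytosolic ribosomal proteins were followed through a cytosol and a membrane fraction of C2C12, a line of mouse myoblasts that fuse into muscle cells once serum is reduced. Members were chosen by symbol: names that begin with Rpl or Rps followed by a digit, together with Rplp0, Rplp1, Rplp2 and Rpsa, and without the kinases named Rps6k. Of 86 matching names, the 73 with at least 260 reads over 26 libraries were kept, among 10184 genes at or above that minimum and 16090 with at least 1 read. They comprised 28 proteins of the small subunit, 37 of the large subunit and the 3 acidic stalk genes. The other 5 were 3 paralogs by name (Rpl7l1, Rps27l and Rpl36al), 1 pseudogene by name (Rps19-ps3) and Rps19bp1, a protein that binds Rps19 and is no part of the ribosome.

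The study measured transcript 3' ends with 3'READS+, an assay that reads the end of a transcript next to its poly(A) tail, in 26 libraries, and made 3 RNA-seq libraries. A set of 16 libraries covered proliferating or differentiating cells, cytosol or membrane fraction, and polysomes (mRNA with several ribosomes) or monosomes (mRNA with 1 ribosome), with 2 replicates for each of the 8 groups. Proliferating cells were kept in DMEM with 10% fetal bovine serum, and differentiating cells in 2% horse serum. For the differentiating monosome libraries the labels give the 10% fetal bovine serum medium, which goes against their stated cell state, although genes of differentiated muscle summed to 3839 to 25116 CPM (counts-per-million, reads scaled to the library total) in them, against 172 to 341 in the proliferating libraries of this set. A further 8 libraries, all from proliferating cells, were 1 cytosol and 1 membrane library each for untreated cells and for puromycin at 100 µg/ml for 0, 30 or 60 min. Puromycin releases unfinished protein chains from ribosomes. The remaining 3' end libraries were 1 whole cytosol and 1 whole membrane fraction, and the RNA-seq libraries were 1 each of cytosol, membrane and an insoluble fraction, all from proliferating cells. C2C12 is a single cell line, and the labels do not say that replicates were separate cultures. The p-values therefore measure only the spread between these libraries, which may be technical.

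A ribosome is built from rRNA and a fixed set of proteins, most of which a cell needs in equal numbers. Growing cells spend much of their mRNA on these genes. Most of their mRNAs begin with a C followed by a run of C and T letters, the 5' terminal oligopyrimidine (TOP) motif, through which the mTOR pathway and the protein Larp1 control their entry into polysomes. These proteins carry no signal peptide, and their mRNAs are translated mainly on free ribosomes in the cytosol, not on the endoplasmic reticulum (ER).

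The start of the transcript was read from the RefSeq promoter table of GRCm38.p6, which held 55 of the 73 members. The motif was searched on the sense strand as a C followed by at least 4 bases that are C or T, beginning no more than 5 bases from the annotated start. It was present in 24 of those 55 members (43.6%), against 5718 of 27025 genes in the table (21.2%). The windows below run from 10 bases before the annotated start through the first 15 transcribed bases of the 5' UTR, 5′ to 3′, with the motif in capitals. The first 4 are shown because they carry the motif and were called in comparisons described here, and the last 4 because they lack it there and include the most abundant small-subunit gene, a stalk gene and the paralog that stood apart.
Rpl14 (chr9:120571507-120571531, plus strand): ggccctCTCTCTTCTCgctgagcgc
Rpl27a (chr7:109519185-109519209, plus strand): cgtgagCTCCTCCCTTTTCCCTTTC
Rps2 (chr17:24720053-24720077, plus strand): gtcgagatctcgcgCTTCTTggagc
Rps18 (chr17:33955651-33955675, minus strand): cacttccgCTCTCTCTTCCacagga
Rps15 (chr10:80292421-80292445, plus strand): cagagctcgcgataactgcgcaagc
Rpl41 (chr10:128549154-128549178, minus strand): gggccggctcggaagtgacgacacc
Rplp0 (chr5:115559457-115559481, plus strand): cgggtttcgaggaccgcctggttct
Rpl7l1 (chr17:46782642-46782666, minus strand): gctgcgcaagcgcagtagctgaagc
A match describes the letters at an annotated start and no more, and a window without one says only that these letters are not in it.

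Read totals were 2964852 to 8237846 in the 16 polysome and monosome libraries and 5506600 to 11631401 in the puromycin libraries. Of the 73 members, 70 entered the tests, which covered 11176 genes in the 16 libraries and 10465 genes in the puromycin set. Rps23, Rpl26 and Rpl30 were not tested because every position of theirs was also listed under a predicted gene (Gm15450, Gm15772 and Gm12191). Ribosomal protein genes have many processed copies in the genome, and how reads with several matches were counted is not given in the sources used here, so single members may hold reads of copies. Just above the minimum stood Rpl11 with 309 reads and Rpl36 with 328, and just below it Rps27 with 246, Rpl22l1 with 236 and Rpl3 with 230. The other 10 names below it, from Rpl29 with 168 reads to Rps29 with 10, were not followed.

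Reads per gene spanned 11462-fold. With 3' end sequencing each read stands for 1 transcript end, so levels in CPM are not divided by length. Rpl8, a large-subunit protein near the catalytic centre, had the most reads over the 26 libraries, 3541766. Other abundant members were Rps15, of the head of the small subunit, with 3440479 reads, Rps20 with 1636012 and Rpl14 with 652171. In all, 38 members had at least 10000 reads and 16 had fewer than 1000. This ranking is that of the 3' end assay. Across the 57 members also in the RNA-seq table, 3' end reads and cytosol RNA-seq reads had a Spearman correlation of only 0.36. In cytosol RNA-seq Rpl41 had 7783 CPM, against 1429 for Rpl8 and 1263 for Rps20. The low members were not low in every assay. Of 12 members with under 1000 3' end reads that the RNA-seq table also lists, 10 had at least 500 reads in the cytosol RNA-seq library alone. Rpl10, a large-subunit protein that joins late in assembly, had 367 3' end reads in 26 libraries and 2779 reads in that 1 library. Rpl10a had 439 and 3088. What sets the 2 assays apart for these genes was not tested, and their 3' end levels are given here only within a gene.

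The share of all reads that fell on the members varied several-fold between pools. In this assay a few genes make up most of it: Rpl8, Rps15 and Rps20 held 63.0% to 78.9% of the member reads of each 3' end library. In proliferating cytosol it was 6.56% and 7.91% in the polysome replicates and 18.8% and 15.7% in the monosome replicates. In proliferating membrane it was 3.11% and 3.58% in polysomes and 6.33% and 6.43% in monosomes. In these cells both monosome libraries of a fraction lay above both of its polysome libraries, and each membrane pool lay below the matching cytosol pool. Differentiating cytosol gave 4.47% and 6.22% in polysomes and 17.0% and 25.0% in monosomes. Differentiating membrane gave 3.01% and 3.85% in polysomes and 10.1% and 19.9% in monosomes, so that its monosome replicates lay far apart. The whole fractions held 7.62% in cytosol and 3.14% in membrane. In the puromycin set the cytosol share was 11% untreated, 11.3% at 0 min, 6.39% at 30 min and 5.83% at 60 min, and the membrane share was 4.03%, 3.98%, 6.35% and 6.02%. The cytosol value was thus lower, and the membrane value higher, in both exposed libraries than in both unexposed ones.

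**Figure D1:**
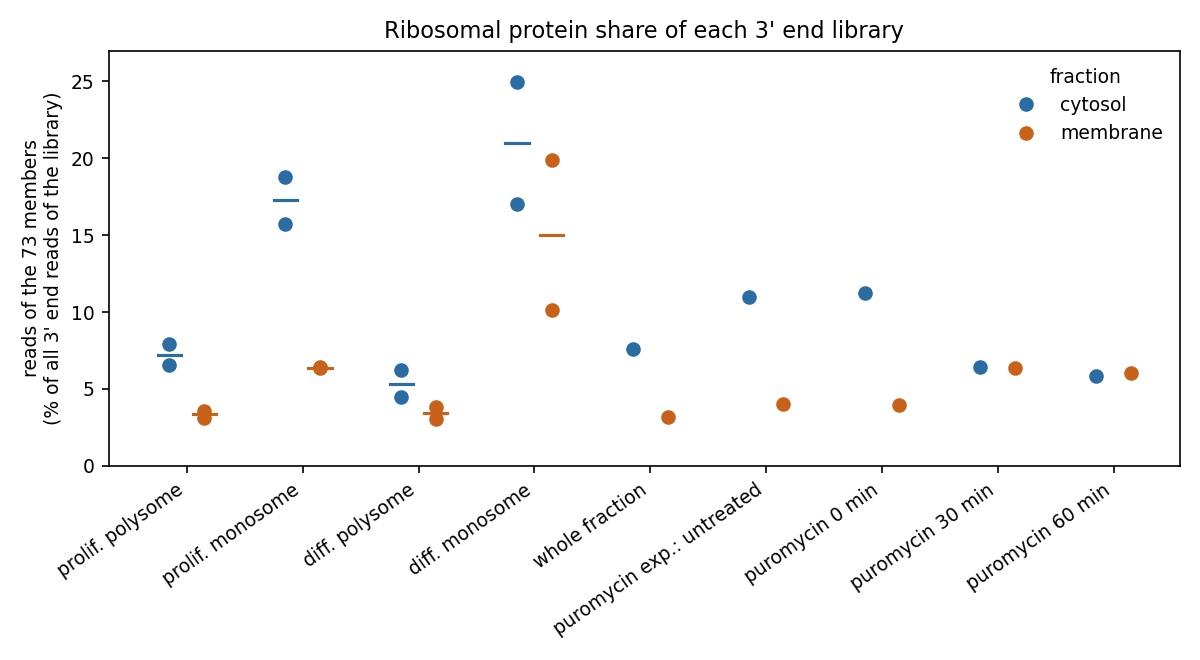
Percent of a library's 3' end reads on the ribosomal protein genes, 1 point per library, by fraction and pool. Monosome libraries sit above polysome libraries of the same cells and fraction, from 15.7% to 25.0% in cytosol, and the cytosol and membrane values draw together at 30 and 60 min of puromycin.

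The highest library of a member was nearly always a monosome library. For 69 of 70 members the highest CPM of all 26 libraries lay in a monosome library, in 22 of them in differentiating cytosol monosome replicate 2 and in 21 in proliferating cytosol monosome replicate 1. Rpl7l1, a paralog of the large-subunit gene Rpl7, was the exception. Its highest value was 664.8 CPM in proliferating cytosol polysome replicate 1 and its lowest 170.3 CPM in differentiating membrane monosome replicate 2. How many of all genes peaked in a monosome library was not counted, so these counts have no background beside them.

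The first comparison asked how the mRNAs were divided between membrane and cytosol in proliferating cells, as the mean over polysome and monosome libraries. Ribosomal protein mRNAs were lower in membrane: 48 of 70 members were called lower and 2 higher by edgeR's quasi-likelihood test at a Benjamini-Hochberg adjusted p of 0.05. Among all 11176 genes 11.5% were called lower and 23.2% higher. The median log2 difference was -1.31 over the members and 0.17 over all genes. Large-subunit genes, the stalk genes not counted apart, gave 28 lower of 38, and small-subunit genes 17 of 27. As in all bulk fractions compared here, fewer cells of a kind and less RNA per cell cannot be told apart, and the values are shares of each library.

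Rpl8 had 21459 and 21724 CPM in cytosol polysomes and 56116 and 25136 CPM in cytosol monosomes, against 11689 and 8193 CPM in membrane polysomes and 18862 and 12823 CPM in membrane monosomes. All 4 membrane values were below all 4 cytosol values. The log2 difference was -1.48 (SE 0.28, edgeR quasi-likelihood test, adjusted p = 0.00123). Rpl41, the smallest ribosomal protein, had 873 and 693 CPM in cytosol polysomes, 5143 and 6969 in cytosol monosomes, 164 and 320 in membrane polysomes and 1406 and 1355 in membrane monosomes. It was lower in membrane in each matched pair and had the largest fall of the members, -2.10 (SE 0.34, adjusted p = 0.000366). Other large falls were those of Rpl27 at -2.00, Rpl32 at -1.99 and Rpl14 at -1.93. Of the stalk genes, which bind the elongation factors, Rplp0 fell by 1.8 (SE 0.24, adjusted p = 8.29e-05) and Rplp1 by 1.73 (SE 0.24, adjusted p = 0.000115), while Rplp2 at -1.11 did not pass (adjusted p = 0.0681). Rpsa, which has also been described as a laminin receptor at the cell surface, was at -0.90 and did not pass either (adjusted p = 0.0682).

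The 2 members called higher in membrane were both rare. Rps28, a small-subunit protein, had 22.8 and 43.0 CPM in membrane monosomes and 1.1 and 1.7 in membrane polysomes, against at most 2.1 CPM in the cytosol libraries. Rpl7 had 46.2 and 55.3 CPM in membrane monosomes, 2.3 and 3.8 in membrane polysomes and 1.1 to 6.3 in cytosol. Both were thus high in 1 pool alone. Their log2 differences were 2.37 (SE 0.63, edgeR adjusted p = 0.01) and 1.90 (SE 0.36, adjusted p = 0.00104). A list of 4 nuclear RNAs moved the same way: its summed level was 17.0 to 38.0 CPM in proliferating cytosol and 78.9 to 718 in proliferating membrane. Its part in the levels of Rps28 and Rpl7 was not tested. In differentiating membrane monosomes Rps28 was at 0.7 and 4.2 CPM and Rpl7 at 2.2 and 2.9, and there neither was called between fractions.

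In differentiating cells 30 of 70 members were called lower in membrane and 0 higher, where 5.49% of all genes were called lower. All 70 fitted differences were below 0, with a median of -0.92 against 0.07 over all genes. Rps3, which lines the mRNA entry of the small subunit, fell by 1.28 (SE 0.32, edgeR adjusted p = 0.0122), and Rpl12, Rpl13 and Rpl27 fell by 1.29, 1.28 and 1.26. The most abundant genes gave -0.87 for Rpl8 (adjusted p = 0.0443) and -0.68 for Rps15, which did not pass (adjusted p = 0.319). With the replicate number as a block within each cell state the count was 57 lower and 0 higher, against 18.3% of all genes. The count also rested on single libraries: it was 9 to 19 without any one of 7 of the 8 differentiating libraries, the exception being cytosol monosome replicate 1. The lowest counts were 9 without membrane monosome replicate 1 and 10 without membrane polysome replicate 2.

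With the polysome libraries alone, an alternative chosen after the data were seen that also leaves fewer libraries, 13 members were called lower in proliferating cells (5.17% of all genes) and 2 in differentiating cells (2.01%). The median log2 difference was then -0.93 over the members and 0.02 over all genes in proliferating cells, and -0.76 and -0.08 in differentiating cells. The difference of the membrane to cytosol ratio between the cell states was tested directly. None of the 70 members was called by edgeR's quasi-likelihood test, where 0% of all genes were. An unadjusted p below 0.05 was reached by 5 members and by 669 of all 11176 genes. DESeq2 called 0 as well. With the replicate block 2 members were called lower (3.87% of all genes) and 1 higher (0.725%): Rpl7 at -2.02, Rpl23a at -1.94 and Rps9 at 0.84. Rpl23a lies at the exit of the peptide tunnel.

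The next comparison set polysomes against monosomes. Each pool was scaled to its own total, so a difference places a gene relative to the other genes and does not count how many of its copies carried several ribosomes. In the cytosol of proliferating cells 33 of 70 members were lower in polysomes and 0 higher, with 12.8% of all genes called lower. The median was -1.40 over the members and -0.02 over all genes. In the cytosol of differentiating cells 59 of 70 were lower and 0 higher, with 11.3% of all genes called lower and medians of -2.45 and 0.07. Ribosomal protein mRNAs were therefore placed towards monosomes in both states.

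Rps2, at the mRNA entry channel, had the largest fall in differentiating cytosol. It had 20.4 and 16.5 CPM in monosomes and 0.34 and 1.53 CPM in polysomes, a log2 difference of -4.61 (SE 0.72, edgeR adjusted p = 0.000865). Rplp0 is the better measured case: 919 and 1327 CPM in monosomes and 101 and 154 CPM in polysomes gave -3.47 (SE 0.37, adjusted p = 0.000256). The groups lay far apart in both genes. Rpl23a, Rps13 and Rps18 fell by 3.80, 3.64 and 3.36. These falls and that of Rps2 rest on few reads in the polysome replicates. The reads were 8 and 4 for Rpl23a, 3 and 2 for Rps13, 2 and 6 for Rps18, and 2 and 9 for Rps2. In proliferating cytosol Rplp0 had 1405 and 1180 CPM in monosomes and 214 and 248 in polysomes, -2.56 (SE 0.35, adjusted p = 0.000427). The largest falls there were those of Rps12 at -3.06, Rpl41 at -3.02, Rps2 at -2.78, Rpsa at -2.70 and Rpl23a at -2.69. In the polysome replicates Rps2 had only 4 and 21 reads and Rpl23a 6 and 9. Among the most abundant members, Rpl8 at -1.0, Rps15 at -1.21 and Rpl14 at -1.16, did not pass in proliferating cytosol (adjusted p = 0.0842, 0.185 and 0.126). Rpl8 monosome replicates there differed from 56116 to 25136 CPM.

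In the membrane fraction the 2 cell states gave different counts. In proliferating membrane 2 of 70 members were lower in polysomes, Rps28 at -4.22 (SE 0.85, edgeR adjusted p = 0.0381) and Rpl7 at -3.70 (SE 0.51, adjusted p = 0.0077), with 0.438% of all genes called lower. The median was -0.63 over the members and 0.22 over all genes. In differentiating membrane 39 of 70 were lower and 0 higher, with 1.91% of all genes called lower and medians of -2.07 and 0.24. Rps12 fell by 3.26 (SE 0.48, adjusted p = 0.00464), Rps15a by 2.91 (SE 0.44, adjusted p = 0.00493) and Rplp0 by 2.90 (SE 0.36, adjusted p = 0.00219). Rps19, Rpl23a and Rpl39 fell by 3.48, 3.33 and 3.01. In the polysome replicates Rps19 had only 6 and 4 reads and Rpl23a 5 and 6. Rplp0 had 485 and 664 CPM in differentiating membrane monosomes and 76.0 and 82.2 in polysomes, while proliferating membrane had 283 and 308 CPM in monosomes and 98.5 and 121 in polysomes.

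**Figure D2:**
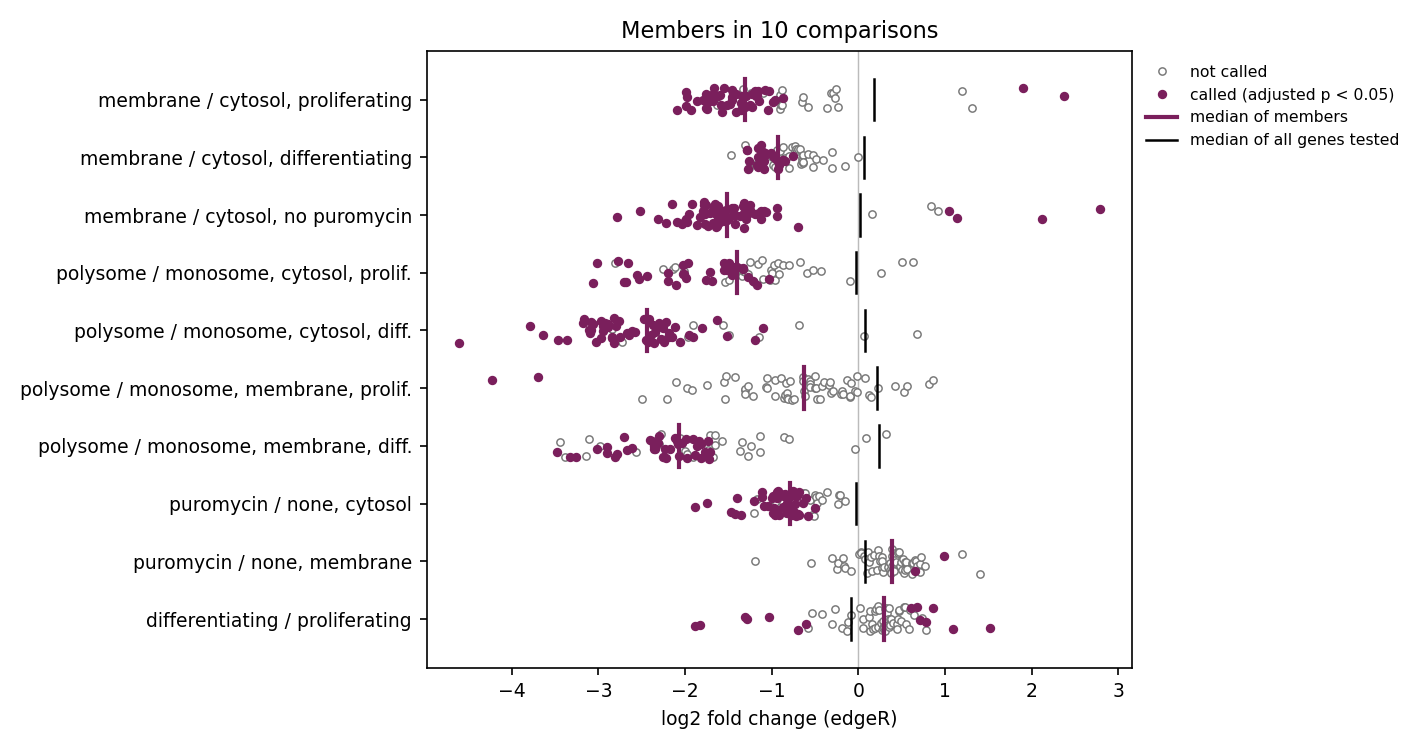
Fitted log2 difference of each tested ribosomal protein gene in each comparison, 1 point per gene, with the median of the members and the median of all genes. The median of the members lies below that of all genes in the comparisons of membrane with cytosol and of polysome with monosome, from -0.63 to -2.45.

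The numbers of the replicates paired the libraries, and a fit with the replicate as a block raised these counts. It gave 57 lower (24.3% of all genes) and 1 higher (23.7%) in proliferating cytosol, 26 lower (6.25%) and 1 higher (16.8%) in proliferating membrane, and 64 lower (9.37%) and 0 higher in differentiating membrane. Leaving out single libraries lowered them, and no share over all genes is given beside those lower counts. Proliferating cytosol fell to 14, 11 and 13 calls without polysome replicate 1, polysome replicate 2 or monosome replicate 1. Differentiating membrane fell to 2 and 4 calls without polysome replicate 1 or 2, and to 21 and 10 without monosome replicate 1 or 2. Proliferating membrane gave 0 calls without either of its polysome replicates and 1 call without any one of 9 other libraries.

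Ratios within each replicate number were also formed directly, from TMM-scaled log2 CPM with a prior count of 2. The median log2 polysome to monosome ratio of the members was -1.77 and -0.81 in the 2 replicates of proliferating cytosol and -0.76 and -0.44 in proliferating membrane. It was -2.25 and -2.62 in differentiating cytosol and -1.76 and -2.24 in differentiating membrane. The ratio was below 0 in both replicates for 62, 53, 67 and 67 of 70 members in these 4 settings. That count was not made over all genes, whose median ratios were 0 to 0.24 in these replicates. Replicate 1 and replicate 2 of proliferating cytosol differed by about as much as the cell states.

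**Figure D3:**
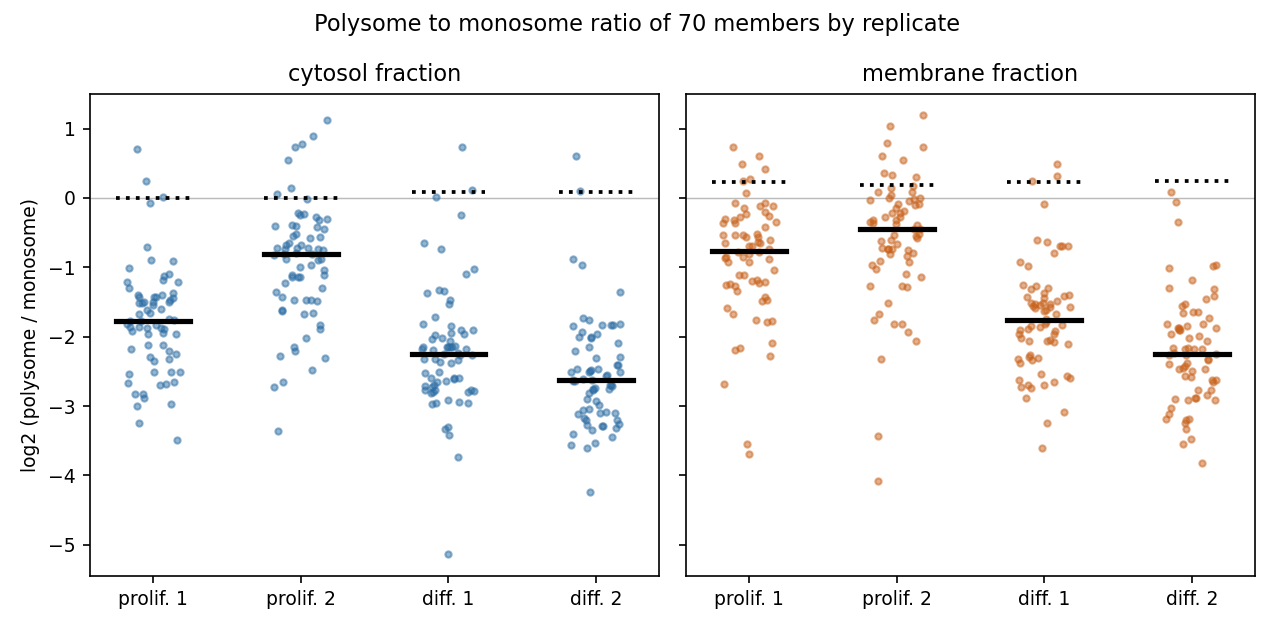
Log2 ratio of polysome to monosome CPM for each of 70 ribosomal protein genes in each replicate, in cytosol and in membrane, with the median marked. Medians run from -0.44 in proliferating membrane replicate 2 to -2.62 in differentiating cytosol replicate 2.

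Whether the polysome to monosome ratio changed with differentiation was tested as a difference of differences. The medium on the labels differs between the differentiating pools and not between the proliferating ones, so its part cannot be told apart. In membrane 0 of 70 members were called by edgeR's quasi-likelihood test (0% of all genes) and 0 by DESeq2. An unadjusted p below 0.05 was reached by 29 members and by 322 of all 11176 genes. The median difference was -1.51 over the members and 0.01 over all genes. In cytosol 0 were called (0% of all genes), 0 by DESeq2, with medians of -1.06 and 0.13. There 11 members and 367 of all genes had an unadjusted p below 0.05. With the replicate block 30 members were called lower in membrane, where 0.734% of all genes were, 82 in number. Among the largest were Rpl13 at -2.77 (SE 0.54, edgeR adjusted p = 0.00719), the small-subunit gene Rps10 at -2.70 (SE 0.44, adjusted p = 0.0008), Rps15a at -2.34 (SE 0.36, adjusted p = 0.000574) and Rpl14 at -2.14. In cytosol the block gave 2 members lower (0.259% of all genes), Rps27a, which is made as a fusion with ubiquitin, at -1.74 (SE 0.34, adjusted p = 0.0155) and Rpl19 at -1.54 (SE 0.34, adjusted p = 0.0281). In membrane 58 of 70 members had both differentiating ratios below both proliferating ratios, as 22.9% of all genes did, and in cytosol 47 of 70 against 15.3%.

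The polysome to monosome ratio was also compared between the fractions. In proliferating cells 1 member was called, higher in membrane, where 6.19% of all genes were. This was Rpl18 at 1.93 (SE 0.53, edgeR adjusted p = 0.0443), with a median of 0.77 over the members and 0.11 over all genes. It had 276 and 331 CPM in cytosol polysomes, 1456 and 872 in cytosol monosomes, 329 and 445 in membrane polysomes and 557 and 526 in membrane monosomes. With the block 2 were lower (10.4% of all genes) and 17 higher (18.1%), among them Rpl9 at 1.71, Rplp1 at 1.57 and Rplp0 at 1.52, with Rps28 at -2.64 and Rpl7 at -1.97 the lower pair. The count was 0 without any one of 11 of the 16 libraries, among them 7 of the 8 proliferating ones, and 3 without the eighth, cytosol monosome replicate 2. In differentiating cells 0 members were called by edgeR (4.1% of all genes in either direction), and DESeq2 called 1, higher (5.89% of all genes). An unadjusted p below 0.05 was reached by 2 members and by 1737 of all 11176 genes. The block gave 5 higher (12.4% of all genes): Rps2, Rps4x, Rpl18, Rpl9 and Rpl5.

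Members with names apart from the core set did not all follow it. Rpl7l1 was lower in proliferating membrane (-1.22, adjusted p = 0.000718 by edgeR), but its polysome to monosome differences were 0.63 and 0.68 in proliferating and differentiating cytosol, neither passing (adjusted p = 0.154 and 0.128). With the replicate block both passed, at 0.63 (adjusted p = 0.0191) and 0.67 (adjusted p = 0.015). Its namesake Rpl7 fell by 1.76 and 2.97 in the same comparisons, but on few reads in the polysome replicates. Those reads were 12 and 7 in proliferating and 4 and 2 in differentiating cytosol. Rpl36al was at 0.50 in proliferating and -0.69 in differentiating cytosol, and Rpl36a at -1.33 and -2.92, of which the last passed (adjusted p = 0.00133). Rps19bp1 was lower in proliferating membrane (-1.51, adjusted p = 0.00268) and at -0.10, 0.06 and 0.09 for polysome against monosome in proliferating cytosol, differentiating cytosol and differentiating membrane, with none passing. Rps27l fell by 1.28 and 1.10 in the polysomes of the 2 cytosols and was at -0.27 between the fractions of proliferating cells (adjusted p = 0.461). Of the pairs in which both genes were followed, only those of Rpl7 and Rpl36a could be set side by side, since Rpl22l1, Rps27, Rpl3, Rpl3l and Rpl39l were below the minimum.

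The TOP motif at the annotated start was set beside these calls as a description. In differentiating cytosol 21 of 23 tested members with the motif were lower in polysomes, as were 22 of 30 without it and 16 of 17 outside the promoter table. Their medians were -2.61, -2.35 and -2.65. The group without the motif holds Rpl7l1, Rpl36al and Rps19bp1, names apart from the core set that were not called lower there. The group with the motif holds Rps27l. In proliferating cytosol the counts were 12 of 23, 13 of 30 and 8 of 17, with medians of -1.51, -1.33 and -1.34. In differentiating membrane they were 12 of 23, 15 of 30 and 12 of 17. Of the genes whose starts are printed above, Rps2 and Rps18 have the motif and Rps15, Rplp0 and Rpl41 lack it in the window. These 5 were lower in differentiating cytosol polysomes. Rpl7l1, which also lacks it, went the other way, with log2 ratios of 0.74 and 0.60 in the replicates. Rpl14 and Rpl27a, which have the motif, gave -2.36 and -2.01, and -1.47 and -1.76.

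Other lists of the translation machinery were set beside the members. Of 20 other mRNAs of the TOP class, which encode elongation and initiation factors and similar proteins, 7 were lower and 0 higher in proliferating cytosol polysomes (median -0.90), and 14 lower and 0 higher in differentiating ones (median -1.72). Over all genes 11.5% were called higher in proliferating and 12.6% in differentiating cytosol polysomes. Of 29 ribosome assembly factors 0 were lower and 8 higher in proliferating cytosol polysomes (median 1.01), and 1 lower and 6 higher in differentiating ones (median 0.66). The 72 mitochondrial ribosomal proteins gave 2 lower and 10 higher (median 0.18), then 5 and 7 (median 0.03). Between the fractions of proliferating cells 31 of these 72 were lower in membrane and 6 higher (median -0.69). Of 9 TOP regulators, a list with Larp1 and Mtor, 1 was lower and 1 higher in each cytosol.

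Differentiating cells were set against proliferating cells as the mean over fractions and pools. As many members were called lower as higher by edgeR: 7 of 70 were lower (19.2% of all genes) and 7 higher (16.3%). In each direction the members were thus called less often than genes at large. The median was 0.29 over the members and -0.09 over all genes. Among the lower ones were Rpl7 (-1.89, SE 0.28, edgeR adjusted p = 0.000205), Rps28 (-1.83), Rps18 (-1.30), Rps13 (-1.28), Rps24 (-1.03, SE 0.17, adjusted p = 0.000474), Rpl9 (-0.70) and Rps27l (-0.61). The first 4 rest on few reads, at most 13, 16, 23 and 19 in a differentiating library. Rpl7 and Rps28 were high only in proliferating membrane monosomes, with 225 and 296 and with 111 and 230 reads. Rps13 had its most reads, 118, in replicate 2 of that pool. Among the higher ones were Rpl27 (1.51, SE 0.26, adjusted p = 0.000623), Rpl5 (0.87), Rpl22 (0.78), Rpl39 (0.71), Rpl36al (0.68) and Rpl23 (0.61). Rps24, a small-subunit gene mutated in Diamond-Blackfan anaemia, had 53.2 to 295 CPM in the 8 proliferating libraries, with a median of 159, and 24.2 to 177 CPM in the 8 differentiating ones, with a median of 59.3. The ranges overlapped, but within each pool both differentiating values were below both proliferating values. Rpl27 had 5.3 to 20.1 CPM in proliferating polysomes and 8.2 to 32.6 in differentiating polysomes, so its ranges overlapped too. In monosomes it had 30.7 and 11.3 CPM in proliferating and 45.9 and 47.2 in differentiating cytosol, and 5.9 and 4.3 against 29.2 and 27.6 CPM in membrane. Both differentiating values were above both proliferating values in each monosome pool and in membrane polysomes. Rpl5, which with Rpl11 carries the smallest rRNA into the large subunit, was at most 50.8 CPM in the 8 proliferating libraries of this set and reached 145.7 CPM in differentiating ones. Its ranges overlapped too, and every differentiating polysome library lay below 50.8 CPM. In each monosome pool both differentiating values were above both proliferating values.

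The 8 libraries of a state come from 2 replicates, and the replicates of the differentiating state differed. Muscle genes summed to 53662, 29720, 25116 and 21325 CPM in the 4 libraries of replicate 1 and to 7825, 6453, 3839 and 4550 CPM in those of replicate 2. Genes of dividing cells were at 45.8 to 124 CPM in differentiating and 249 to 872 in proliferating libraries. The part of these in the differences was not tested. When each replicate was reduced to the mean of its 4 libraries, an alternative chosen after the data were seen, limma called 0 of 70 members, where 4.54% of all genes were called. There 6 members had an unadjusted p below 0.05, and no share over all genes is given beside that count. DESeq2 on the single libraries called 7 lower (17.6% of all genes) and 19 higher (20.1%). The block gave 8 lower (30.5% of all genes) and 29 higher (24.8%), but it pairs libraries only within a state and so leaves out the spread between its replicates. Ribosome assembly factors were lower in differentiating cells in 19 of 29 cases, with 0 higher and a median of -0.82, and 6 of 20 other TOP mRNAs were higher, 1 lower.

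In the puromycin set exposed cells (30 and 60 min) were compared with unexposed cells (untreated and 0 min). With 1 library per exposure and fraction, the untreated and 0 min libraries stood in for each other, as did 30 and 60 min. Without puromycin the members were placed as in the first comparison, with 62 of 70 lower in membrane (29.5% of all genes) and 4 higher (31.7%), and a median of -1.52 against 0.01 over all genes. Those 4 were Rps28 at 2.79, Rpl7 at 2.12, Rpl23a at 1.14 and Rps19 at 1.05. The summed level of nuclear RNAs was 25.2 to 33.6 CPM in these cytosol libraries and 167 to 211 in membrane, and its part was not tested.

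In exposed cytosol 43 of 70 members fell and 0 rose, with 6.43% of all genes called lower. The median was -0.80 over the members and -0.03 over all genes. In exposed membrane 2 of 70 were called higher (2.86%), Rpl27a by 0.99 and Rps20 by 0.65. That is close to the 2.69% of all genes called higher. The medians there were 0.39 over the members and 0.08 over all genes. The change of the membrane to cytosol ratio was tested directly: 54 of 70 members rose (18% of all genes) and 0 fell, and all 70 fitted values were above 0. The median change was 1.15 against 0.21 over all genes. Both subunits took part, with 19 of 27 small-subunit and 32 of 38 large-subunit genes called.

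Rpl8 had 37610 CPM untreated and 45626 CPM at 0 min in cytosol, then 26748 at 30 min and 22187 at 60 min. In membrane the values were 12752, 17662, 27523 and 26183 CPM. The fractions, several-fold apart before exposure, were close to equal after it, and the change in ratio was 1.52 (SE 0.16, edgeR adjusted p = 3.85e-07). Rps20 went from 12546 and 13750 CPM to 5954 and 6347 in cytosol and from 3364 and 2873 to 5365 and 5131 in membrane, a change of 1.76 (SE 0.17, adjusted p = 1.69e-07). Rpsa had 133.8, 97.9, 46.8 and 43.9 CPM in cytosol and 53.1, 40.9, 71.0 and 75.1 in membrane, a change of 1.89 (SE 0.19, adjusted p = 3.38e-07). Larger fitted changes were those of the rare Rpl10 at 3.17 (SE 0.76), Rpl10a at 2.12 and Rps13 at 1.94. Rps19bp1 at 0.43 just passed (adjusted p = 0.0489) and Rps27l at 0.34 did not (adjusted p = 0.154).

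For the 45 members with a mean of at least 10 CPM over the puromycin libraries, the median log2 membrane to cytosol ratio (of CPM + 1) was -1.33 untreated, -1.46 at 0 min, -0.16 at 30 min and -0.11 at 60 min. Over all 6238 genes at that level it was -0.00, 0.02, 0.13 and 0.14. Both exposed ratios lay above both unexposed ones in 45 of 45 members and in 53.0% of those genes. ER marker mRNAs also moved between the fractions with exposure, in the direction opposite to the members. A list of 7 ER marker mRNAs, all 7 detected, summed to 231 to 274 CPM in unexposed and 3631 to 3965 CPM in exposed cytosol. In membrane it summed to 7353 to 7372 CPM unexposed and 3440 to 3580 CPM exposed. What moved these mRNAs, and their part in the members' change, was not tested. Of 18 other TOP mRNAs 7 rose in ratio and 1 fell (median 0.45), and of 71 mitochondrial ribosomal proteins 21 rose and 1 fell (median 0.42).

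**Figure D4:**
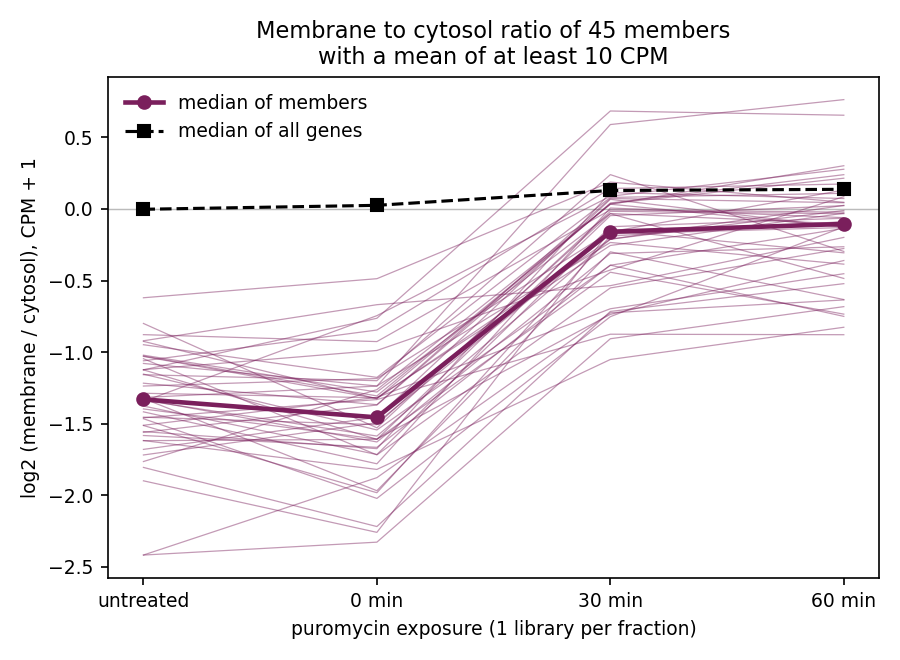
Log2 ratio of membrane to cytosol CPM of 45 ribosomal protein genes at each exposure, 1 library per fraction and exposure, with the median of the members and of all genes. The medians are -1.33 and -1.46 before exposure and -0.16 and -0.11 after 30 and 60 min.

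The call was made of 2 exposed against 2 unexposed cells. With minutes as a number in place of exposed or not, edgeR called 0 members in cytosol, membrane or the change of ratio, with 43, 5 and 42 at an unadjusted p below 0.05. In that form 0.00956%, 0.143% and 0% of all genes were called. No share over all genes is given for the unadjusted counts, nor for the counts below that leave out an exposure. In cytosol 2 members were called without the 30 min libraries and 2 without those of 60 min. In membrane the count was 16 without untreated cells, 13 without 0 min, and 0 without 30 or 60 min. For the change of ratio it was 41 to 50 whichever exposure was left out.

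Most members ended at 1 place. Of the members, 14 had 1 listed poly(A) site, and 40 had a single site with over 5% of their reads, while 21 had 2 such sites and 12 had 3 or more. The most used site held at least 95% of reads in 37 members and under 60% in 10. The proximal and distal site of a gene could be compared in 29 members, among 4554 genes tested, with the sites 26 to 1849 nt apart. The table does not mark gene regions, so whether both sites lie in the same 3' UTR is not known.

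Rpl22, a large-subunit protein with the paralog Rpl22l1, used its distal site more in differentiating cells. Its sites lie 1587 nt apart on chromosome 4 (mm9, positions 151706589 and 151708176, plus strand). The distal site held 13.5% to 28.3% of reads in the 8 proliferating polysome and monosome libraries, with a median of 22.3%, and 25.9% to 61.8% in the 8 differentiating ones, with a median of 48.2%. A single differentiating library, membrane monosome replicate 1 at 25.9%, lay within the proliferating range. The log2 change of the distal to proximal ratio was 1.71 (SE 0.21, edgeR adjusted p = 9.00e-05), the only call among the 29 members, with 1.08% of all genes called higher. In the proliferating cells of the puromycin set, however, the distal share was 35.9% to 49.7%, and it was 26.3% and 23.8% in the whole cytosol and membrane. Proliferating cells of that set thus lay within the range of differentiating cells. On the mean of 4 libraries per replicate limma called 0 of 29, with 2 at an unadjusted p below 0.05, for which no share over all genes is given. The block gave 2 lower (2.9%) and 5 higher (7.18%), again without the spread between replicates of a state. Among them were Rps24 at -1.02, Rps27l at 0.69, Rpl37a at 0.60 and Rpl27a at 0.54.

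Rpl27a was the only member called for site use between the fractions of proliferating cells. Its sites lie 584 nt apart on chromosome 7 (mm9, positions 116665286 and 116665870, plus strand). The distal site held 24.2%, 28.4%, 37.2% and 32.6% of reads in cytosol (polysome replicates 1 and 2, then monosome replicates 1 and 2) and 17.2%, 14.2%, 13.8% and 13.4% in membrane. All membrane values were below all cytosol values. The log2 change was -1.35 (SE 0.25, edgeR adjusted p = 0.0102), with 0.0439% of all genes called lower. It was lost when any of 6 of the 8 proliferating libraries was left out, the exceptions being membrane polysome replicate 1 and cytosol monosome replicate 2. In differentiating cells the ranges overlapped, 21.0% to 45.3% in cytosol and 20.2% to 31.7% in membrane, and the change was -0.38 (adjusted p = 0.844). In the puromycin set the distal share was lower throughout, 4.64% to 11.6%. The block gave 5 lower (1.16%) and 3 higher (4.92%) in proliferating cells, the lower ones being Rps25, Rpl27a, Rps27l, Rplp0 and Rpl23 and the higher ones Rps19-ps3, Rpl39 and Rps15a.

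Of the other site comparisons, membrane against cytosol in differentiating cells gave 0 of 29 by edgeR (0.022% of all genes). There 1 member, Rpl23, and 282 of all genes had an unadjusted p below 0.05. Polysome against monosome in proliferating cytosol gave 0 of 29 (0.11% of all genes), with 1 member and 240 of all genes at an unadjusted p below 0.05. The block called Rpl4 lower (0.659%). Site use was not tested with DESeq2.

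**Figure D5:**
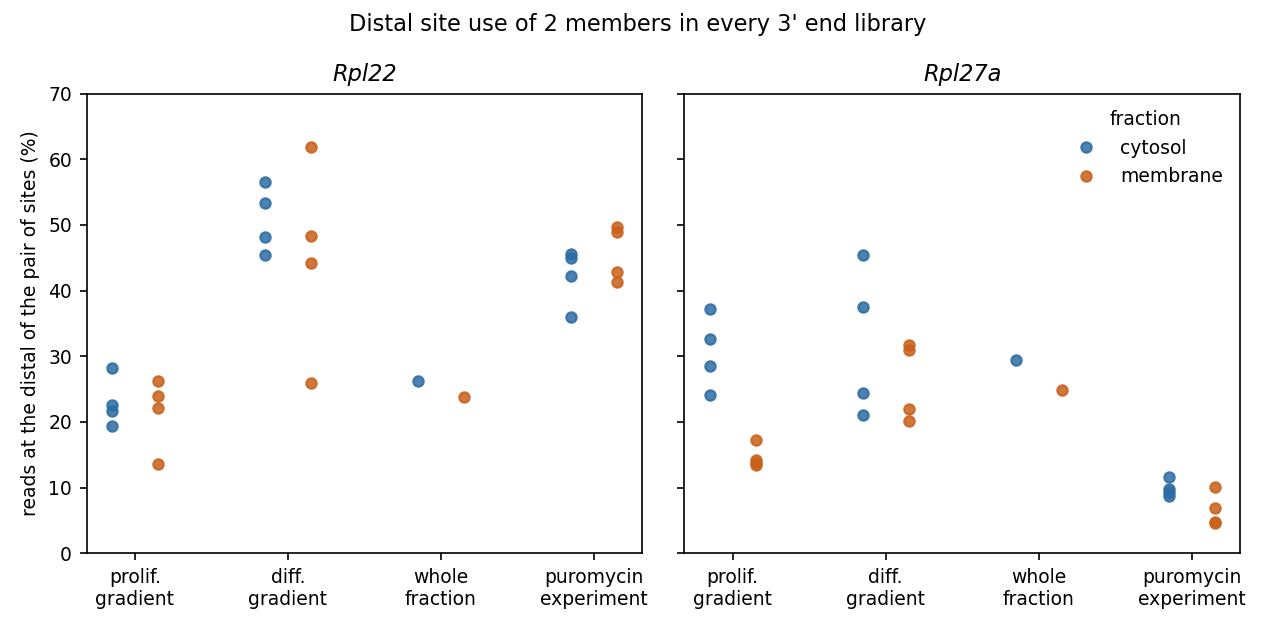
Percent of reads at the distal poly(A) site of ribosomal protein genes by library, for Rpl22 and Rpl27a. Rpl22 reaches 61.8% in differentiating cells and lies at 35.9% to 49.7% in the puromycin set, and Rpl27a is lower in membrane than in cytosol of proliferating cells.

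The RNA-seq libraries, with 4415707 reads in cytosol, 6521107 in membrane and 4283571 in the insoluble fraction, had no replicates, so that no test was made. Reads counted in the 3' UTR parts of a gene were summed. Of 55 members with at least 20 reads in each library, 54 were lower in membrane than in cytosol, where 56.6% of all 8001 such genes were, with a median log2 ratio of -1.01 against -0.17 (pseudocount of 1 CPM). The exception was Rpl30, at 0.07. All 55 were lower in the insoluble fraction, as 41.5% of all genes were, with medians of -2.13 and 0.30. Rplp0 had 2240 CPM in cytosol, 833 in membrane and 234 in the insoluble fraction, and Rpl8 had 1429, 700 and 343.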

How the data were processed

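The deposited table of poly(A) sites holds raw read counts for 125369 entries in 26 libraries, and the deposited RNA-seq table raw read counts in 2 parts of the 3' UTR, per the file headers. The submitters' processing notes name mm9, cutadapt, Bowtie2 and STAR 2.5.2 without their roles. Counting rules and strand are not given in the sources used here. Counts were summed over the sites of a symbol, leaving out 651 positions listed under several symbols (0.262% of reads).

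Tests used edgeR 4.0.16 in R 4.3.3 on all genes: filterByExpr, TMM scaling, the robust quasi-likelihood test, a mean per group over the 16 libraries, and Benjamini-Hochberg adjustment at 0.05. A log2 fold change divided by the root of its F value gave the SE. The puromycin fit had terms for exposure and fraction. Site pairs (at most 10 kb apart, a mean of at least 10 reads, at least 5% at the rarer site) were tested with proximal and distal counts as columns and a term per library. Same-numbered libraries of a cell state deviated together (correlations of 0.469 to 0.725 in 12 of 12 pairs of groups), so the number was taken to pair them. Alternatives used DESeq2 1.42.0, limma 3.58.1, other scaling and filters, and left out each library. Scripts were tested on simulated data. Named members were the 3 most abundant of each subunit, up to 5 called in each direction of a comparison, the stalk genes, Rpsa, paralogs and, for site use, members with a tested pair. The members and lists were chosen with earlier results of these data known. Some named members and 1 companion list are not reported here.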

Additional observations from a re-analysis of the deposited data

Results flagged for a closer look

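These results are listed because an effect differed between 2 settings by a test of the difference itself. The change of the membrane to cytosol ratio with puromycin was called, higher, in 54 of 70 members, against 18% of all genes. The polysome to monosome ratio differed between fractions of proliferating cells in 1 member, Rpl18. With the replicate block it differed in 19 of 70, where 28.5% of all genes were called, and in 5 in differentiating cells, where 18.7% were, so neither count exceeds the share over all genes. With the block, differentiation changed the polysome to monosome ratio of 30 members in membrane (1.32% of all genes) and 2 in cytosol (0.376%). It changed the membrane to cytosol ratio of 3, close to the share over all genes (4.6%). Without the block these last 3 counts were 0. The differentiating polysome and monosome libraries also differ in the medium that their labels give.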

How the results depend on the processing

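For members given in full, 1794 fitted values under alternatives were set beside the reported ones: 1794 kept their direction, 0 reversed, and 253 were no longer past the threshold. The median over the members kept its sign in 279 of 279 cases. DESeq2 size factors or TMM without ribosomal protein genes moved the median of all genes by up to -0.25 (membrane against cytosol, proliferating), from 0.17, while the distance of the members' median from it went from -1.48 to -1.48. In that comparison the calls over all genes went from 1290 lower and 2597 higher to 2043 and 2133. For polysome against monosome in membrane they went from 49 and 40 to 83 and 15 in proliferating and from 213 and 229 to 320 and 111 in differentiating cells, and in differentiating cytosol from 1264 and 1409 to 1537 and 1124 with size factors. For the puromycin comparison, size factors took them from 673 and 1737 to 1085 and 1638 in cytosol and from 550 and 282 to 819 and 196 in membrane.

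Counts of members called that moved by over 1.5 times were these. The replicate block gave 57 for membrane against cytosol in differentiating cells and 3 for its change with differentiation. For polysome against monosome it gave 58 in proliferating cytosol, 27 in proliferating and 64 in differentiating membrane, and 2 and 30 for the change in cytosol and membrane. It gave 19 and 5 for the ratio between fractions, 37 for differentiating against proliferating, and 8, 1 and 7 for site use (fractions of proliferating cells, pools, cell states), and changed no other count by that much. Polysome libraries alone, added after the data were seen, gave 13 and 2 for membrane against cytosol. For polysome against monosome in proliferating membrane the DESeq2 test gave 10, size factors 4, TMM without ribosomal protein genes 4 and no filter 5. The ratio between fractions of proliferating cells gave 4 with DESeq2, and 0 with no filter or with TMM without these genes, and that of differentiating cells 1 with DESeq2. Differentiating against proliferating gave 26 with DESeq2 and 0 with limma on replicate means, as did site use, 0. Puromycin with minutes as a number gave 0, 0 and 0, and in membrane size factors gave 1 and no filter 7. For site use, a rarer site of 1% gave 2 in fractions and 2 in cell states, and a mean of 50 reads 2.

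Leaving out 1 library in turn gave 40 to 55 and 9 to 36 for membrane against cytosol in proliferating and differentiating cells. For polysome against monosome it gave 11 to 40 and 41 to 60 in proliferating and differentiating cytosol, and 0 to 3 and 2 to 41 in membrane. It gave 0 to 3 and 0 to 0 for the ratio between fractions, 10 to 21 for differentiating against proliferating, and 2 to 48, 0 to 16 and 41 to 50 for puromycin in cytosol, membrane and the change of ratio. Site use gave 0 to 1 for proliferating fractions and 1 to 3 for cell states. The cause was not tested. No share over all genes is given beside counts with a library left out, here or above, so they describe the members alone. Groups held 2 libraries, or 1 per exposure and fraction, and 16 members had under 1000 reads in all, which limits the precision of their values. The relation to protein length and the shortest and longest proteins were not run, since no protein table was used.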
